A study of Mus musculus with 9 samples.

Results

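Simple epithelium keratins and Krt23 were followed through mouse esophageal epithelial organoids, small self-organised cultures of esophageal epithelial cells, that were wild type (WT) or labelled as knockouts of tumour suppressor genes. The 7 genes were taken by symbol (Krt7, Krt8, Krt18, Krt19, Krt20, Krt23 and Krt80) from the 8742 genes in the union of 3 deposited tables, and all 7 were found. Each table covers 1 pair of groups and lists only genes that the authors had called at an adjusted p under 0.05, so a gene had to be called in at least 1 pair to be seen at all. The 9 libraries were 3 of WT (genotype wild type), 3 of PN (Trp53;Notch1 KO) and 3 of PCN (Trp53;Cdkn2a;Notch1 KO). All were untreated, and all were collected 7 days after seeding. By label, PCN carries both edits of PN too. The labels give no mouse strain, age, sex, clone, editing method or batch. Nor do they say whether separate cultures lie behind the 3 replicates, so a p-value here reflects library-to-library spread, which may be technical.

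Keratins are the intermediate filament proteins of epithelia, and a filament forms from pairs of an acidic type I and a basic type II chain. Simple, single-layered epithelia are known for KRT8 with KRT18, often joined by KRT7 and KRT19, whereas stratified squamous epithelium such as the esophagus is built mainly on KRT5 with KRT14 in the basal layer and KRT4 with KRT13 above it. Of the genes described here, Krt7, Krt8 and Krt80 encode type II chains and Krt18, Krt19, Krt20 and Krt23 type I chains.

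The WT libraries held 14695420 to 15093994 counts, the PN libraries 16857744 to 18912526 and the PCN libraries 17422590 to 20198041. In counts per 1000000 counts of the library (CPM), Trp53 was at 118 to 121 for WT, at 2.27 to 3.24 for PN and at 2.53 to 3.96 for PCN, and Notch1 was at 213 to 277, 140.5 to 154 and 66.5 to 76.9. Cdkn2a, labelled as knocked out only in PCN, was at 6.49 to 10.3, 21.5 to 22.7 and 62.4 to 70.2 CPM, highest in the organoids labelled as its knockout. A count over a whole gene does not check an edit, so the label is neither borne out nor contradicted by it. PCN below always means the libraries labelled PCN. All 10 basal and 8 of 9 suprabasal esophageal epithelial markers were among the listed genes. Summed over the 8 suprabasal markers, WT libraries had 28496 to 30333 CPM, PN libraries 4623 to 4901 and PCN libraries 5072 to 5320. Krt13 and Krt4, with means of 15876 and 11383 CPM in WT, made up most of that sum. Ivl was level between WT and PN, at 22.6 ± 3.2 and 22.1 ± 0.54 CPM, while the other markers had lower means in PN. The sum was lower in both edited groups, as were most of the simple keratins described below, and its part in their levels was not tested. The 7 basal markers with counts in all 9 libraries, a set without Krt5, summed to 5953 to 6773, 6118 to 6231 and 7993 to 8440 CPM. Within that sum the markers went different ways in PN. There the means of Krt15 and Trp63 were above those in WT, and the means of Pax9, Itga6, Itgb4 and Col17a1 were below.

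In WT organoids the simple keratins were read at low to moderate levels, led by Krt18 and Krt19. Krt18, Krt19, Krt7, Krt80 and Krt20 were lower in both edited groups than in WT, by 2.58 to 19.8 times in PN and 4.76 to 29.6 times in PCN. Krt23 went another way, with 5.30 times more RNA in PN than in WT and 2.35 times less in PCN than in WT. Krt8, with no PN value, was the only gene of the set higher in PCN than in WT, by 2.49 times and from very few counts. In bulk RNA, fewer cells of a type and less RNA per cell cannot be told apart.

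For PN against WT, 6 of the 7 genes were in the authors' deposited table, 1 higher and 5 lower, and all 6 passed a refit of that table at an adjusted p of 0.05. Of the 17165 genes the authors had tested, their table lists 38.1% (18.2% higher and 19.9% lower), and the refit called 36.4% (17.6% higher and 18.8% lower). For PCN against WT, all 7 were in the authors' deposited table and passed the refit, 1 higher and 6 lower. There the table lists 38.6% of 17300 genes (18.4% higher and 20.2% lower), and the refit called 36.5% (17.5% higher and 19.0% lower). For PCN against PN, 4 were in the authors' deposited table and passed the refit, all lower, where the table lists 24.5% of 14758 genes (12.6% higher and 11.8% lower) and the refit called 23.8% (12.3% higher and 11.5% lower). A gene is in a table only because it was called there, so passing the refit adds no support. For the same reason, a lack of overlap between the libraries of 2 groups adds none for a gene listed for that pair. The share of all listed genes without such overlap is not given here. The median log2 fold change of the listed keratins was -2.40, -3.39 and -1.71 in these comparisons in turn, and that of all listed genes fitted was -0.26, -0.28 and 0.16. The comparisons share libraries and are not independent of each other.

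**Figure D1:**
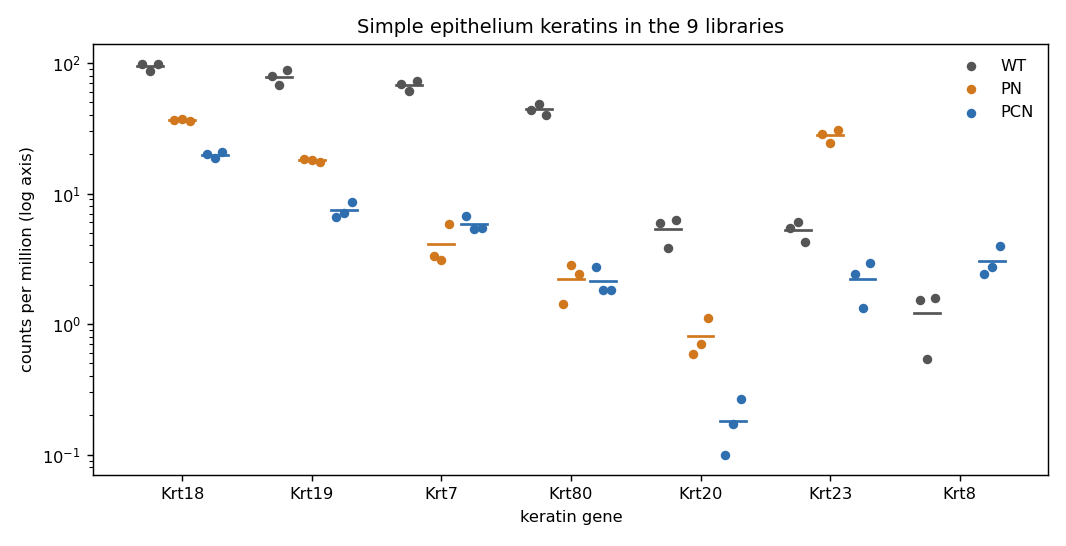
CPM (log axis) of the 7 keratins in each of the 9 libraries, with points for single libraries and a bar at the group mean (n = 3 libraries per group). For Krt18, Krt19, Krt7, Krt80 and Krt20 all 6 edited libraries lie below all 3 WT libraries, Krt23 is highest in PN at 24.3 to 30.9, and Krt8 has points for WT and PCN only.

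Krt18, the type I partner of KRT8 in simple epithelia (ENSMUSG00000023043, chromosome 15, 102028180 to 102032027, GRCm38, as are all coordinates below), had the highest level per length of the set in every group. The WT libraries had 97.7, 86.6 and 98.9 CPM, with 36.8, 37.2 and 35.8 in PN and 20.2, 18.7 and 20.6 in PCN. The 3 groups did not overlap and were ordered WT above PN above PCN. The log2 fold change was -1.36 ± 0.08 (SE) in PN against WT (edgeR quasi-likelihood test with Benjamini-Hochberg adjustment, adjusted p = 2.7e-08), -2.25 ± 0.09 in PCN against WT (edgeR adjusted p = 2.2e-10) and -0.88 ± 0.08 in PCN against PN (edgeR adjusted p = 3.1e-10).

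Krt19, a type I keratin that lacks most of the tail domain and is found in simple epithelia and some basal cells (ENSMUSG00000020911, chromosome 11, 100140810 to 100148665), had the same order with a larger fall. It stood at 78.8, 67.7 and 89.0 CPM in WT, 18.3, 18.1 and 17.6 in PN and 6.63, 7.12 and 8.65 in PCN. Again no library of 1 group reached the range of another. Its log2 fold changes were -2.11 ± 0.11 (edgeR adjusted p = 5.6e-09), -3.39 ± 0.13 (2.4e-10) and -1.27 ± 0.12 (7.4e-10) in the same order of comparisons. The ratio of Krt18 to Krt19, in FPKM (CPM per kilobase of listed gene length), was 1.56 ± 0.11 (SD, n = 3) in WT, 2.63 ± 0.027 in PN and 3.46 ± 0.43 in PCN, so relative to WT Krt19 RNA was lower by more than Krt18 RNA. The libraries of the groups did not overlap in this ratio. An exact two-sided permutation test of 3 against 3 gave p = 0.1 for each pair of groups, the smallest it can give (adjusted p = 0.11 over the 12 ratio tests made).

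Krt7 and Krt80, both type II, had the largest fold changes of the set in PN against WT and are not listed for PCN against PN. Krt7, a keratin of glandular and ductal epithelia (ENSMUSG00000023039, chromosome 15, 101411043 to 101430313), stood at 68.4, 61.1 and 73.1 CPM in WT, 3.32, 3.12 and 5.87 in PN and 6.78, 5.34 and 5.48 in PCN. Both edited groups lay far below WT, while PN replicate 3 reached into the range of PCN. The log2 fold change was -4.01 ± 0.18 in PN against WT (edgeR adjusted p = 1.2e-08) and -3.52 ± 0.12 in PCN against WT (edgeR adjusted p = 5.4e-11). For PCN against PN, a fit over all 9 libraries gave a difference of 0.50 ± 0.21 on the log2 scale, with a 95% interval of 0.06 to 0.94 that is not adjusted for the other genes.

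Krt80, a type II keratin of differentiating epithelia (ENSMUSG00000037185, chromosome 15, 101347444 to 101370162), stood at 43.7, 48.7 and 39.9 CPM in WT, 1.42, 2.83 and 2.43 in PN and 2.72, 1.84 and 1.83 in PCN. The edited groups overlapped each other and stood apart from WT. Its log2 fold change was -4.29 ± 0.18 in PN against WT (edgeR adjusted p = 1.2e-09) and -4.35 ± 0.16 in PCN against WT (edgeR adjusted p = 1.2e-10). For PCN against PN, the fit over all 9 libraries gave -0.06 ± 0.25, with a 95% interval of -0.58 to 0.46. The ratio of Krt80 to Krt7 CPM was 0.660 ± 0.13 in WT, 0.583 ± 0.28 in PN and 0.360 ± 0.037 in PCN. This ratio did not overlap between PCN and either other group and overlapped between PN and WT (exact two-sided permutation p = 0.6, and 0.1 for the other pairs).

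Krt20, a type I keratin known from the surface cells of intestine and stomach and from Merkel cells (ENSMUSG00000035775, chromosome 11, 99428403 to 99438150), had the lowest mean FPKM of the type I members in every group, overlapping Krt23 in WT. Its counts were 89, 56 and 94 in the WT libraries, 10, 12 and 21 in PN and 2, 3 and 5 in PCN, or 5.94, 3.81 and 6.23 CPM, 0.593, 0.707 and 1.11 CPM and 0.0990, 0.172 and 0.268 CPM. The groups did not overlap, but the PCN level rests on 10 counts in all. The log2 fold change was -2.69 ± 0.32 in PN against WT (edgeR adjusted p = 2.0e-05), -4.84 ± 0.41 in PCN against WT (edgeR adjusted p = 4.3e-07) and -2.15 ± 0.55 in PCN against PN (edgeR adjusted p = 0.0032). Without PN replicate 3 the last of these was -1.83 and no longer passed (edgeR adjusted p = 0.058, the alternatives spanning 0.0011 to 0.058). On log2(FPKM + 0.1) the differences of PCN from WT and from PN were smaller, at -3.88 (Krt80 -4.03) and -1.41, as a pseudocount shrinks low values.

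Krt23, a less studied type I keratin (ENSMUSG00000006777, chromosome 11, 99477974 to 99493137), was higher in PN than in WT, unlike the other 5 members with PN values. It stood at 5.48, 6.06 and 4.24 CPM in WT, 28.4, 24.3 and 30.9 in PN and 2.43, 1.32 and 2.95 in PCN. Every PN library was above every WT library, and every PCN library was below them. The log2 fold change was 2.42 ± 0.15 in PN against WT (edgeR adjusted p = 5.6e-08), -1.22 ± 0.28 in PCN against WT (edgeR adjusted p = 0.0033) and -3.63 ± 0.17 in PCN against PN (edgeR adjusted p = 9.6e-13). The drop of 12.5 times between the edited groups was the largest of the 4 members listed for that pair. In FPKM, the ratio of Krt23 to Krt18 was 0.0517 ± 0.012 in WT, 0.70 ± 0.095 in PN and 0.102 ± 0.034 in PCN, without overlap between any pair of groups (exact two-sided permutation p = 0.1 for each, the smallest possible). Krt23 and Krt18 were listed in opposite directions in PN against WT, so the lack of overlap there adds no support.

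Krt8, the type II partner of KRT18 (ENSMUSG00000049382, chromosome 15, 101996698 to 102004482), was listed only for PCN against WT, so no PN value was analysed here. Its counts were 23, 8 and 24 in WT and 49, 48 and 74 in PCN, or 1.54, 0.544 and 1.59 CPM and 2.43, 2.76 and 3.97 CPM. All PCN libraries were above all WT libraries, and the lowest value was that of WT replicate 2. The log2 fold change was 1.31 ± 0.37 (edgeR adjusted p = 0.011), beside 1.32 with an adjusted p of 0.012 in the authors' deposited table. The call was lost without WT replicate 2 (0.96, edgeR adjusted p = 0.051) or without PCN replicate 3 (1.08, edgeR adjusted p = 0.071), the alternatives spanning 0.00090 to 0.071. Krt18 exceeded Krt8 in FPKM by 129 ± 76 times in WT (84.8 to 217) and by 9.21 ± 2.1 times in PCN (7.07 to 11.3). The genes of these paired chains thus differed in direction in PCN, as far as the call on Krt8 holds. Keratin genes resemble each other in sequence and the counting method is not given in the sources used here, so how reads shared with relatives or copies were assigned is unknown and single members are uncertain, Krt8 with its few counts most of all.

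**Figure D2:**
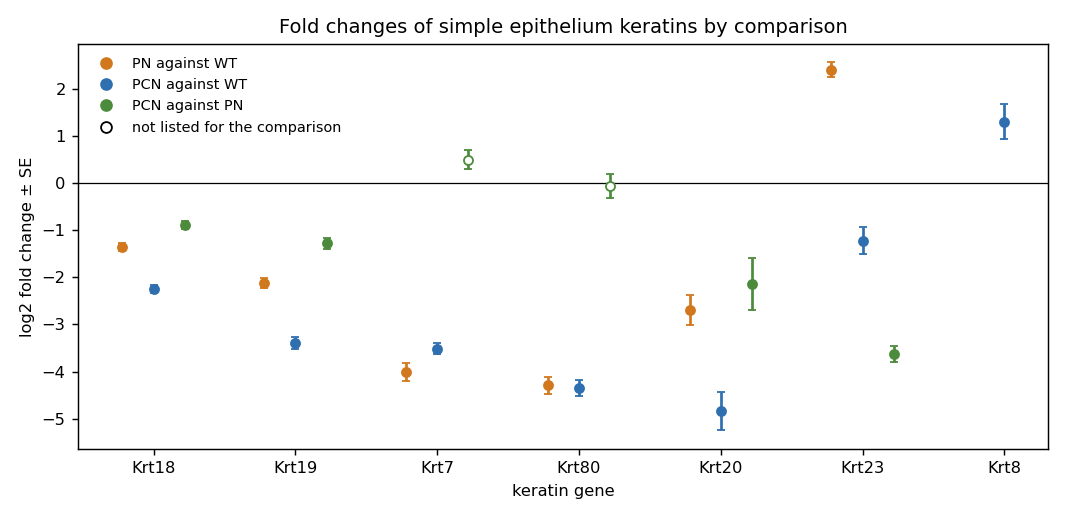
Log2 fold changes of the 7 keratins with standard errors, coloured by the pair of groups compared. Filled points are genes listed for the comparison and passing an adjusted p of 0.05 in the refit, and open points are genes not listed for it, from a fit over all 9 libraries. Of the 6 genes with a PN value, Krt23 alone is above 0 in PN against WT, at 2.42, and of all 7 Krt8 alone is above 0 in PCN against WT, at 1.31.

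Per length, the order of the members changed with genotype. In WT it ran Krt18 (65.7 ± 4.7 FPKM), Krt19 (42.3 ± 5.8), Krt7 (9.58 ± 0.86), Krt80 (6.90 ± 0.68), Krt23 (3.36 ± 0.59), Krt20 (2.76 ± 0.69) and Krt8 (0.625 ± 0.30), and only the neighbours Krt23 and Krt20 overlapped between libraries. In PN it ran Krt18 (25.5 ± 0.48), Krt23 (17.8 ± 2.1), Krt19 (9.71 ± 0.22), Krt7 (0.582 ± 0.22), Krt20 (0.417 ± 0.14) and Krt80 (0.348 ± 0.11), with the last 3 overlapping in turn. In PCN it ran Krt18 (13.8 ± 0.69), Krt19 (4.02 ± 0.57), Krt8 (1.56 ± 0.42), Krt23 (1.43 ± 0.53), Krt7 (0.832 ± 0.11), Krt80 (0.333 ± 0.081) and Krt20 (0.0934 ± 0.044). There, Krt8 overlapped Krt23 and Krt23 overlapped Krt7.

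The listed lengths of Krt7 and Krt80, 7049 and 6393 bases, are the union of all exons of 5 annotated transcripts each and exceed the principal transcripts of GENCODE M21, 4094 and 3067 bases, by 1.72 and 2.08 times. With this length, chosen after the data were seen, Krt7 and Krt80 stood at 16.5 ± 1.5 and 14.4 ± 1.4 CPM per kilobase in WT and overlapped each other. On that scale the mean of Krt80 was above that of Krt20 in PN, and that of Krt7 above that of Krt23 in PCN, with overlapping libraries in both cases. For Krt8, Krt18, Krt20 and Krt23, with 1 annotated transcript each, the 2 lengths are equal.

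The 6 members with counts in all 9 libraries summed to 130.6 ± 10.6 FPKM in WT, 54.3 ± 1.8 in PN and 20.5 ± 1.6 in PCN. Krt18 made up 50.3% ± 0.82 of this sum in WT, 46.9% ± 2.4 in PN and 67.4% ± 2.2 in PCN. Krt19 made up 32.3% ± 1.9, 17.9% ± 0.88 and 19.6% ± 2.0, and Krt23 2.61% ± 0.66, 32.7% ± 2.8 and 6.85% ± 2.1. The type II chains Krt7 and Krt80 together had 16.5 ± 0.18 FPKM (WT), 0.931 ± 0.26 (PN) and 1.17 ± 0.19 (PCN). The 4 type I members summed to 114 ± 10.4, 53.4 ± 1.7 and 19.3 ± 1.6 FPKM. That was a smaller factor below WT than for Krt7 and Krt80 in both edited groups, a difference that was not tested. Krt8, also type II, is left out of these sums for lack of PN counts. It had 0.625 ± 0.30 FPKM in WT and 1.56 ± 0.42 in PCN, a PCN mean above that of Krt7 and Krt80 together. Adding it would narrow the contrast in PCN. Among all 19 keratins with counts in all 9 libraries, a set that lacks Krt5, the 6 members took 0.746% ± 0.081 of the summed FPKM in WT, 0.898% ± 0.022 in PN and 0.314% ± 0.027 in PCN (exact two-sided permutation p = 0.1 for each pair, the smallest possible). The summed FPKM of the 19 was 17546 ± 504 in WT, 6052 ± 110 in PN and 6540 ± 124 in PCN. Krt5 alone, with no WT value, had 3017 ± 104 FPKM in PN and 2744 ± 145 in PCN. With Krt5 counted the shares would be lower, and whether PN would still be above WT is not known.

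**Figure D3:**
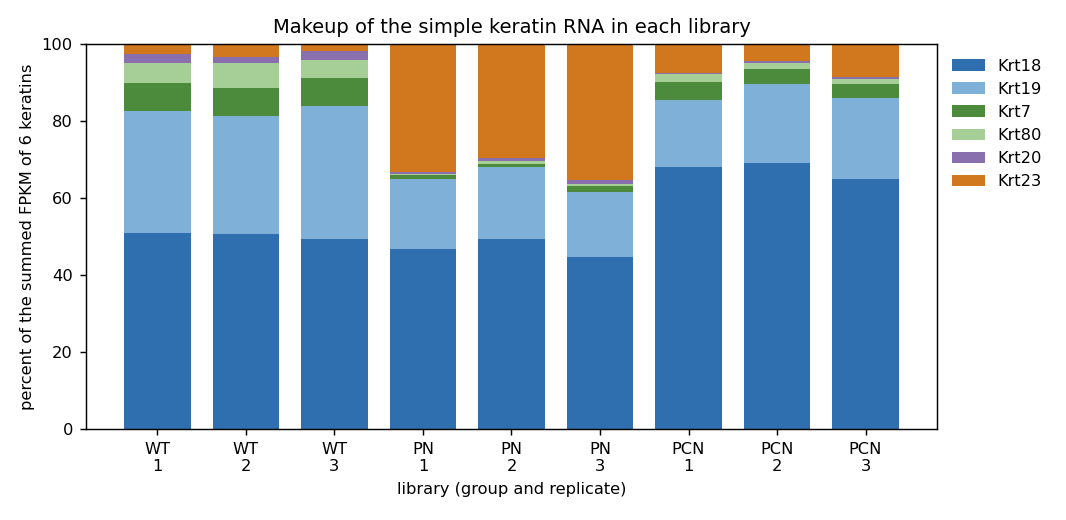
Share of each keratin in the summed FPKM of the 6 simple epithelium keratins with counts in all 9 libraries, as stacked bars of percent, 1 bar per library. Krt23 takes 29.6% to 35.3% in the PN libraries and at most 8.54% in any WT or PCN library.

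Keratin genes sit in 2 clusters of the mouse genome. Krt20, Krt23 and Krt19 are in the type I cluster on chromosome 11, and Krt80, Krt7, Krt8 and, as the only type I gene there, Krt18 are in the type II cluster on chromosome 15. Krt20 and Krt23 are 39.8 kb apart with no listed gene between them, and in PN Krt20 fell while Krt23 rose. Krt8 and Krt18 are 23.7 kb apart, likewise with no listed gene between, and differed in direction in PCN, whereas Krt80 and Krt7, 40.9 kb apart, fell together. Between Krt20 and Krt19, 6 keratins were listed for PN against WT, 2 higher and 4 lower, and between Krt80 and Krt18 there were 9, 2 higher and 7 lower, members included. Of all listed genes on chromosomes 11 and 15, 45.5% and 51.1% were lower in PN, beside 52.2% over all chromosomes.

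The stretches before the start sites of the neighbours Krt20 and Krt23 are shown because these adjacent members differ in direction in PN against WT. They are from the RefSeq promoter table (build GRCm38.p6), which matched 5 of the 7 members and not Krt19 or Krt80, and are given 5′ to 3′ on the minus strand, up to the first exon annotated in GENCODE. The capitals mark TATAAA, and Krt23 has none.
Krt20, chr11:99438154-99438403: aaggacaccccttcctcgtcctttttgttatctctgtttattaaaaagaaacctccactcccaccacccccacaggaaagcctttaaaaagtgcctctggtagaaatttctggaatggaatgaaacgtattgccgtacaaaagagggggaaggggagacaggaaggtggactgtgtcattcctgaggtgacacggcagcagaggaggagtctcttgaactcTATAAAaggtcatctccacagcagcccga
Krt23, chr11:99493138-99493370: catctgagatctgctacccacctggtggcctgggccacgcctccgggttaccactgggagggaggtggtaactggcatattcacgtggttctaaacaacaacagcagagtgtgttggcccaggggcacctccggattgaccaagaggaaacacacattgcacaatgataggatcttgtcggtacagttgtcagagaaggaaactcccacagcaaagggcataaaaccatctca

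A search for 5 motifs covered both strands of the 250 bases before each RefSeq start. TATAAA was found in 1 of 5 member windows, that of Krt20 at position -29, and in 12.4% of the 32851 windows of all genes. The GC box GGGCGG was found in 1 of 5, that of Krt7, and in 32.7% of all windows. The RBPJ letters TGGGAA, bound by the DNA-binding partner of Notch, were found in 1 of 5, that of Krt8, and in 21.6% of all. In the Krt7 and Krt8 windows an exon annotated in GENCODE begins after 82 and 110 bases. Their matches all lie beyond that point. The AP-1 letters TGANTCA and the p53 decamer were found in 0 of 5, beside 6.75% and 7.13% of all windows. No matches of different motifs fell in the same member window, and a match is only a match of letters.

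The genes with the most similar pattern were sought by Pearson's r of log2(CPM + 1) over the 9 libraries, among 5393 protein-coding genes (5394 for Krt20) with a mean of at least 5 CPM. As the libraries fall into 3 groups, r mostly follows the group means and is given as a description. Krt18 was closest to Bspry and Anxa3 (r = 0.998 each) and Krt19 (0.998), and Krt19 to Krt18, Bspry and Vsnl1 (0.998, 0.997 and 0.996). Krt7 was closest to the serine protease gene Prss27, Gabrp and Stx11 (0.996 each), and Krt80 to Ankrd50, AA986860 and the targeted gene Trp53 (0.998, 0.997 and 0.996). Krt20 was closest to Adipor1, Sar1b and Cln3 (0.996, 0.994 and 0.993). Krt23 had looser neighbours, the HSP90 co-chaperone gene Ahsa1, Timm9 and Msrb3 (0.981, 0.979 and 0.977), the first 2 of them on chromosome 12. Among the members themselves, r was 0.98 for Krt7 with Krt80 and between -0.31 and 0.17 for Krt23 with the others.

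The other keratins of the study did not move one way. Of 47 on the list, 12 were listed for PN against WT and 10 passed the filter on low counts, 5 of these higher and 5 lower, with a median log2 fold change of -0.09. For PCN against WT the numbers were the same, with a median of -0.11. In both comparisons 10.6% of the list was higher and 10.6% lower. Shares of a list, here and below, are over all its genes, whether or not the authors tested them. They are therefore not directly comparable with shares of the tested genes. Of all tested genes, 17.6% were called higher and 18.8% lower in PN, and 17.5% and 19.0% in PCN. For PCN against PN 4 were higher and 4 lower among 9, with a median of -0.13. Each was 8.51% of the list, beside 12.3% higher and 11.5% lower of all tested genes. In PN against WT the suprabasal esophageal keratins Krt13 and Krt4 fell from 15876 ± 645.5 to 2099 ± 80 CPM (log2 fold change -2.91 ± 0.06) and from 11383 ± 410.3 to 2501 ± 75 CPM (-2.18 ± 0.06), and in PCN they changed by -2.50 ± 0.06 and -2.36 ± 0.06. Krt76 rose from 18.1 ± 2.0 to 65.9 ± 4.0 CPM and Krt79 from 0.355 ± 0.27 to 8.55 ± 1.4 CPM (4.56 ± 0.35, or 5.36 without WT replicate 3 and 3.48 on log2(FPKM + 0.1)). In PCN against WT, Krt79 changed by 4.24 ± 0.36 (5.04 and 3.19 under the same changes) and Krt15, a basal keratin, by 2.46 ± 0.09. In PN the log2 fold changes of Krt7 and Krt80 were thus larger in size than those of Krt13 and Krt4 and that of Krt18 smaller, though differences between genes were not tested. In PCN against PN, Krt15 changed by 1.17 ± 0.04 to 1644 ± 38 CPM, the stress keratin Krt16 by 0.68 ± 0.06, Krt76 by -0.84 ± 0.07 and Krt17 by -0.48 ± 0.04.

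Of 24 genes that anchor or handle keratin filaments, 14 were listed for PN against WT, 2 higher and 12 lower, with a median log2 fold change of -0.92. Those lower were 50% of the list, beside the 18.8% of all tested genes called lower. For PCN against WT, 12 were listed, 1 higher and 11 lower (45.8% of the list, beside 19.0% of all), with a median of -0.99. The cornified envelope plakins Ppl and Evpl, which bind keratins at desmosomes, changed by -2.34 ± 0.08 and -2.15 ± 0.08 in PN and by -2.55 ± 0.09 and -2.12 ± 0.08 in PCN. The desmosomal plakophilin Pkp2, found in simple epithelia and heart, had 7.75 ± 1.0 CPM in WT, and changed by -1.75 ± 0.26 to 2.25 ± 0.95 in PN and by -1.27 ± 0.20 to 3.21 ± 0.37 in PCN, and Pkp1 changed by -1.45 ± 0.07 in PN. The small heat shock gene Hspb1 changed by -1.38 ± 0.10 in PCN. In PCN against PN, 5 of 9 listed were higher and 4 lower, with a median of 0.15. They were 20.8% and 16.7% of the list, beside 12.3% and 11.5% of all tested genes. Among them were Pnn at -0.72 ± 0.05, Krtcap3 at 0.40 ± 0.09 and Dsp, the desmosomal plakin, at 0.34 ± 0.05. No member of the simple keratins listed for that pair was higher.

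Of 49 genes of columnar and glandular epithelium, where these keratins are usually found, 15 were listed for PN against WT and 13 fitted, 2 higher and 11 lower, with a median log2 fold change of -2.55. For PCN against WT, 13 were listed and 12 fitted, 2 higher and 9 lower, with a median of -1.34. Those lower were 22.4% and 18.4% of the list, beside the 18.8% and 19.0% of all tested genes, and most of the list was in neither table. How many of the 49 the authors tested is not known, so these shares do not compare directly. The adhesion gene Ceacam1 changed by -4.39 ± 0.13 in PN and -3.51 ± 0.10 in PCN, the claudins Cldn7 and Cldn4 by -3.96 ± 0.20 and -3.53 ± 0.11 in PN and by -3.41 ± 0.20 and -3.06 ± 0.09 in PCN, and the epithelial transcription factor gene Elf3 by -3.37 ± 0.07 and -2.55 ± 0.08. In PCN against PN, 7 of 11 fitted were higher and 4 lower, with a median of 0.31. They were 14.3% and 8.16% of the list, beside 12.3% and 11.5% of all tested genes. Elf3 and Ceacam1 rose there by 0.83 ± 0.08 and 0.88 ± 0.12, and the transcription factor genes Gata6 and Foxa1 changed by -0.92 ± 0.13 and -0.87 ± 0.06. In that comparison Krt18, Krt19, Krt20 and Krt23 fell.

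**Figure D4:**
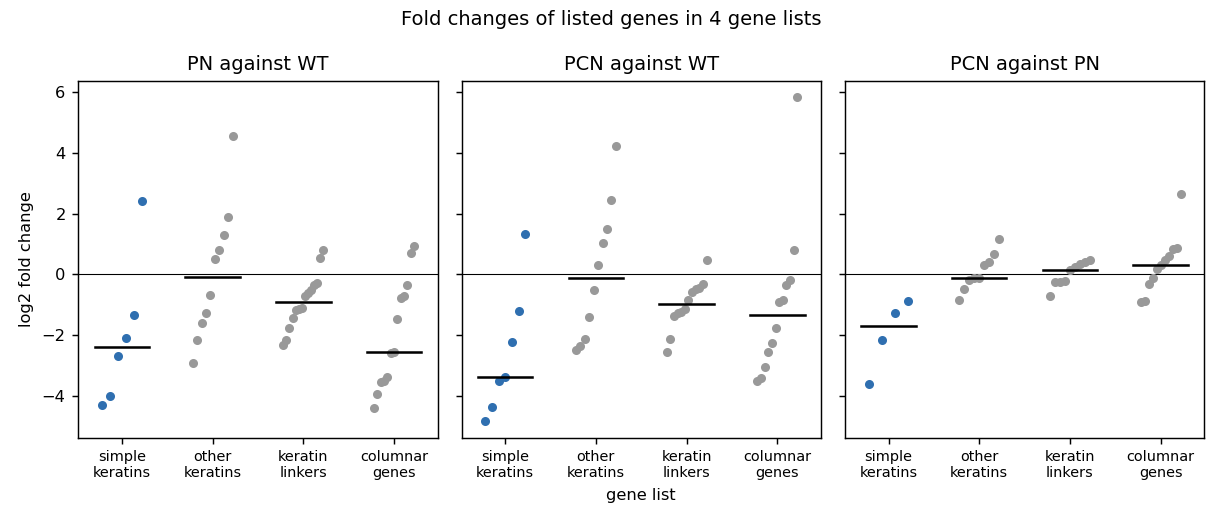
Log2 fold changes of the simple epithelium keratins, the other keratins, keratin linker genes and columnar epithelium genes listed for each comparison and fitted, 1 point per gene, with a line at the list's median. In PN against WT the medians are -2.40, -0.09, -0.92 and -2.55, and in PCN against PN all 4 simple keratins lie below 0.

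Markers of other cell types that carry simple keratins were checked, members left out. Of 6 mesothelial markers, 2 were among the listed genes, Msln and Upk1b, with summed levels of 21.2 to 27.9 CPM for WT, 1.48 to 2.54 for PN and 2.93 to 5.21 for PCN. Of the members left out of that marker list, Krt7, Krt18 and Krt19 were likewise lower in both edited groups. Krt8, also left out of it, was higher in PCN than in WT and has no PN value. Of 14 gastric and intestinal markers, 2 were listed, Muc2 and Vil1, both also on the columnar list, summing to 1.47 to 2.12, 0.106 to 0.353 and 0.644 to 1.03 CPM. None of 8 neuroendocrine and Merkel cell markers and none of 9 fibroblast markers was listed, 1 of 8 leukocyte markers was (Cd68, 107 ± 12.8, 25.2 ± 1.6 and 16.1 ± 0.97 CPM), and 1 of 6 endothelial markers (Esam, 5.63 to 11.7, 4.65 to 5.99 and 4.55 to 6.03 CPM). Of 8 ciliated airway markers, 2 were listed, Tubb4b and Cfap43, summing to 754.6 to 825, 801 to 833 and 651 to 673 CPM. Tubb4b made up most of that sum, and the markers differed in direction between PN and WT. Ordered WT, PN, PCN, the mean CPM of Tubb4b was 728 ± 35, 779 ± 15 and 620 ± 13. That of Cfap43 was 66.2 ± 2.1, 36.8 ± 1.6 and 41.5 ± 2.1, lower in both edited groups, as were most of the simple keratins. Absence from the tables says nothing of a marker's level. The part of any of these cells in the keratin results was not tested.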

How the data were processed

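Total RNA of 9 organoid libraries was analysed from 3 deposited tables, each of the genes the authors called for 1 pair of groups. Per the submitters' processing notes, CASAVA and DESeq were used with GRCm38 (mm10). The aligner, the counter, the annotation release and all versions were not given in the sources used here. Raw counts came from the authors, per the file headers. The deposited normalized signal equals the count over a size factor for each library and pair. The deposited FPKM equals the count per kilobase of listed length and scaled by library total. The log2 fold change and the p-value, with its Benjamini-Hochberg form, are the authors' own, per the file headers. Each pair was refitted on its whole table with edgeR 4.0.16 in R 4.3.3 (robust quasi-likelihood F test, filterByExpr by group), with offsets built from recovered library totals and deposited size factors. Adjustment ran over the number of genes recovered from the adjusted p-values, with a threshold of 0.05. Refitting genes already called on these libraries is not independent evidence. A standard error is |log2 fold change|/√F. CPM is the count over the recovered library total, and sums of FPKM are over members with counts in all 9 libraries. The fit over all 9 libraries used the 6644 genes with counts in each. The 7 members and the lists were chosen with earlier results of these data known. Named from each list were up to 4 called genes per comparison with the largest change and at least 5 CPM in the higher group. Of the genes this rule chose, 1 is not reported here. Likeness named 3 genes per member. The fits were tested on simulated data. Same-numbered WT and PN libraries deviated together from their group means (r of 0.10 to 0.21, beside -0.19 to 0.02 for other numbers). The replicate numbers may thus pair these groups, which the labels do not say. Between WT and PCN, r reached 0.27 for different numbers, so r of this size does not settle it. The main fits used group only, without pairing. Alternatives were DESeq2 1.42.0, limma 3.58.1 on log2(FPKM + 0.1), other scalings, no filter, a replicate block, a fit over all libraries, and leaving out each library. The principal transcript length was added after seeing the data.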

Additional observations from a re-analysis of the deposited data

How the results depend on the processing

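No fold change of a simple keratin or of a named list gene reversed under any alternative, and of 687 such recomputed values 684 stayed on their side of the threshold. The exceptions were Krt8 without WT replicate 2 or PCN replicate 3 and Krt20 in PCN against PN without PN replicate 3. Counts of called members stayed at 6 in PN against WT, and ranged from 6 to 7 in PCN against WT and from 3 to 4 in PCN against PN. The largest shift of a member was that of Krt20 in PCN against WT on log2(FPKM + 0.1), by 1.95 times. With the replicate number as a block, the log2 fold change of Krt23 in PN against WT was 2.41. No call of a member or named gene changed, nor any list's count in PN against WT. Called linker genes went from 12 to 11 in PCN against WT, and in PCN against PN called other keratins went from 8 to 7 and columnar genes from 11 to 10. Same-numbered PCN libraries did not deviate together with those of the other groups. For them, r of the deviations from the group means was -0.28 to -0.10 with WT and -0.13 to -0.08 with PN. Correlations of this size do not settle whether libraries were paired. Krt8 has no value in the fit over all 9 libraries, since it lacks PN counts there. Depth limits Krt20 in PCN (10 counts) and Krt8 in WT (55 counts).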
